A study of Mus musculus with 531 samples.

Results

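The cells described here are 51 single cells of the epiblast of 1 mouse embryo at embryonic day 5.5 (E5.5). They were taken from the 80 E5.5 cells with RNA counts by a fixed filter, at least 50000 reads on genes and at least 2000 detected genes, which 59 cells passed. Of these, the 8 whose cell number in the labels is a multiple of 12 were left out, because an earlier analysis of the same counts had found endoderm markers in them. Across the whole series 264 cells have RNA counts and 217 pass the same filter. The variable genes, co-varying groups, gene lists and bimodal genes were also computed in the 37 of the 51 cells with at least 4000 detected genes, since the number of detected genes varies widely among these cells.

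The study followed DNA methylation and transcription in single cells as mouse embryos leave naive pluripotency, with 91 cells from 5 embryos at E4.5, 80 cells from 1 embryo at E5.5 and 93 cells from 2 embryos at E6.5, the embryo numbers being those of the labels. All embryos were wild-type C57Bl/6Babr and their sex was not recorded. At E5.5 the visceral endoderm and the extraembryonic ectoderm were pulled away from the epiblast by hand, the tissue was dissociated with Accutase, and single cells were picked with a drawn pipette. RNA and DNA of each cell were separated (scM&T-seq), and only the RNA, sequenced after Smart-seq2 amplification, was used here. Each cell is its own library, and all 51 come from 1 embryo. Cells of 1 embryo are not replicates of a stage, so the values below describe the spread among these cells and carry no p-values.

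The epiblast after implantation is a cup-shaped epithelium that gives rise to all tissues of the fetus. Its cells keep the core pluripotency factor Pou5f1 (Oct4), lose most of the naive factors of the blastocyst, and gain factors of a formative or primed state together with the enzymes that methylate DNA de novo. They divide fast and rely strongly on glycolysis.

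Between 600404 and 3772599 reads were counted on genes in each of the 51 cells, with a median of 1497628, and between 2219 and 7154 genes were detected, with a median of 5599. The 14 cells with fewer than 4000 detected genes did not have fewer reads. They held a median of 2141206 reads and 3224 genes, against 1271367 reads and 5915 genes in the other 37. Reads on mitochondrially encoded genes made up 0.887% to 6.88% of a cell's reads, with a median of 4.28% in the 14 cells and 2.86% in the 37. Reads carry no molecular identifiers, so a level of 0 in a cell means that no read was counted and not that the gene was silent.

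The epiblast label held in every cell for the marker genes that are read most. Pou5f1 was at 356 CPM (reads on a gene per 1000000 reads of the cell on genes) in the lowest cell, at a median of 1822 and at 3076 in the highest, and Tdgf1 (Cripto), the co-receptor of Nodal, was at 19, 670.0 and 1606 CPM. Both were at 10 CPM or more in 51 of 51 cells. The chromatin-associated factor Utf1 reached 10 CPM in 44 cells, among them all 37 with at least 4000 genes, the POU factor Pou3f1 (Oct6) in 39 and the growth factor Fgf5 in 28. Fgf5 ranged from 0 to 279 CPM with a median of 17.3, so 23 of the 51 cells were under the level used to count it.

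Markers of neighbouring tissues were mostly absent. Of 14 visceral endoderm markers, Cubn, Gata4, Gata6, Sox17, Foxa2 and Hnf4a had no read in any of the 51 cells, and 9 of the 14 stayed below 10 CPM in every cell. Their summed level ran from 0.451 to 1829 CPM with a median of 487. Nearly all of it was Apoe, a lipid carrier protein, which reached 10 CPM in 47 cells with a median of 481 CPM. Dab2 reached 10 CPM in 6 cells, Amn in 4, Apoa1 in 2 and Rbp4 in 1. Since the 8 cells left out were chosen with their endoderm markers known, this low level is in part a property of the choice. Of 10 extraembryonic ectoderm markers, Elf5 and Hand1 had no read and 7 stayed below 10 CPM in every cell, with a summed level of 0 to 169 CPM. The rest were Eomes, at 10 CPM or more in 11 cells, and Bmp4 and Ets2, in 5 each. Of 12 markers of the primitive streak and mesoderm, T (Brachyury), Mixl1, Mesp1, Lhx1 and Foxa2 had no read. Among the others, Eomes reached 10 CPM in 11 cells, Fgf8 in 9 and Lefty2 in 5.

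To find genes that differ between these cells by more than their level and the cell's detected genes account for, the number of detected genes was regressed out of log2(CPM + 1) of each gene. The remaining variance was divided by a smooth trend of variance on mean level. A gene was called variable when this variance ratio was at least 2 with all cells and with any 1 cell left out. Of the 6818 genes with at least 10 CPM in at least 10 cells, 44 (0.645%) were called in the 51 cells. Of 6508 genes tested in the 37 cells, 55 (0.845%) were called. The 2 sets of calls shared 21 genes, 47.7% of the first and 38.2% of the second. The median ratio of all tested genes was 1.02 in both sets of cells.

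**Figure D1:**
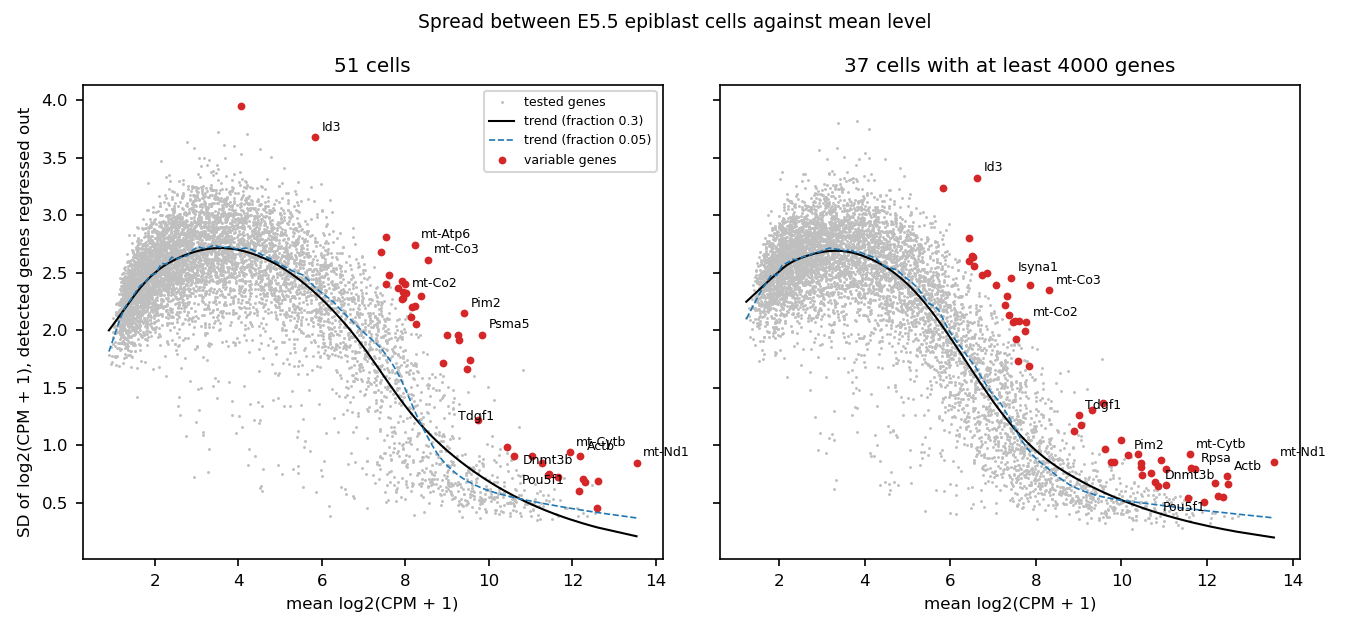
Standard deviation (SD) of log2(CPM + 1) between cells, after detected genes were regressed out, against mean log2(CPM + 1), with 1 point per tested gene, for the 51 cells (left) and the 37 cells with at least 4000 detected genes (right). Lines are the trends used for the ratio (solid) and with a narrower window (dashed), and red points are the 44 and 55 variable genes, of which mt-Nd1 lies farthest to the right in both panels.

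Calls depended on the level of the gene. In the 51 cells 0 of 4174 genes with a mean below 4 on the log2 scale were called. With a mean of 4 to 6 it was 2 of 1355. The lack of a call for a gene of low level therefore says little about its variation. The trend lay below the most abundant genes. The 13 genes with a mean of 12 or more on the log2 scale had a median ratio of 3.34 in the 51 cells, and a narrower window brought this to 1.89. With that window 37 genes (0.543%) were called in the 51 cells and 57 (0.876%) in the 37, and 32 (0.469%) and 42 (0.645%) were called with both windows. Calls made in both sets of cells and with both windows numbered 17. Nearest to the limit in the 51 cells, by the lowest ratio with 1 cell left out, were the phosphatase gene Acp1 (2.08), a predicted gene (2.08) and Actg1 (2.09) inside, and Spcs2 (just under 2.0), Cyb5a (1.98) and mt-Nd5 (1.94) outside. In the 37 cells these were Ahctf1 (2.01), Psmd2 (2.02) and Gapdh (2.03) inside, and Mrpl1 (1.99), Tex30 (1.99) and Ube2c (1.97) outside.

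Mitochondrially encoded transcripts were the most variable group. The mitochondrial genome encodes 13 proteins of the respiratory chain and ATP synthase, and in the 51 cells 7 of these 13 genes were called (8 of 13 in the 37 cells, which add mt-Nd5). mt-Nd1, a subunit of complex I, had the highest ratio of all called genes, 16.6, and 18.5 in the 37 cells. Its level ran from 2333 CPM through a median of 11619 to 39485 CPM, an SD of 0.84 on the log2 scale. With the narrower window its ratio was 5.34 and no longer the highest, below Psma5 (9.81), Pim2 (9.30), mt-Co3 (5.99) and others. mt-Cytb, the cytochrome b subunit of complex III, had a ratio of 6.98 and ranged from 614 to 27853 CPM around a median of 4501. mt-Co1 (complex IV) had a ratio of 4.88 with levels of 1734, 5056 and 11015 CPM, and mt-Nd2 a ratio of 2.64 with 361, 1367 and 6108 CPM. These 4 genes were read in every cell and varied together: the Spearman correlation (rho) of mt-Nd1 over the 51 cells was 0.745 with mt-Cytb, 0.628 with mt-Nd2 and 0.613 with mt-Co1.

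mt-Co2, mt-Atp6 and mt-Co3 varied in another way. mt-Co3 was at 15.5 CPM in the lowest cell, at a median of 343 and at 11702 CPM in the highest, an SD of 2.61 on the log2 scale, against 0.70 for mt-Co1. mt-Atp6 ran from 4.10 through 221 to 16865 CPM and mt-Co2 from 6.83 through 187 to 5718 CPM. The same cells tended to be high for all 3 genes, and rho between them was 0.915 to 0.957 over the 51 cells and 0.88 to 0.93 over the 37. With the rest of the mitochondrial genome they shared little: rho of mt-Co3 was -0.0916 with mt-Nd1, 0.037 with mt-Cytb and 0.288 with mt-Co1.

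These 3 genes lie in a stretch of the mitochondrial genome that has a near-complete copy in the nuclear genome. In GRCm38, chrM:6390-11042 aligned to chr1:24611535-24616188, on the minus strand, over 4654 bases with 99.936% identity, 2 mismatches and 1 gap. The genes wholly inside are mt-Co2 (chrM:7013-7696), mt-Atp8, mt-Atp6 (chrM:7927-8607), mt-Co3 (chrM:8607-9390), mt-Nd3 and mt-Nd4l, all on the plus strand and each a single exon, while 63.6% of mt-Nd4 and 31.3% of mt-Co1 lie inside. None of the 7 GENCODE genes annotated at the copy has a row of counts. The first 50 bases of mt-Co2 and mt-Co3, printed because a read from either place would be the same, run from the start codon and are identical at chrM:7013-7062 and chr1:24615516-24615565, and at chrM:8607-8656 and chr1:24613922-24613971.
mt-Co2: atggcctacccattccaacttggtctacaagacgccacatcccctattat
mt-Co3: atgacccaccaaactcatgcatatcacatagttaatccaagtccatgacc
One of the 2 mismatches is T9461C near the start of mt-Nd3, with positions counted along chrM and the mitochondrial base first. It is shown in capitals in chrM:9446-9476 and in chr1:24613102-24613132 read on the minus strand.
mt-Nd3, chromosome M: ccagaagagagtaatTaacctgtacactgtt
mt-Nd3, chromosome 1: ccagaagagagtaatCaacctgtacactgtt
Every 50-base stretch of mt-Co2, mt-Atp8, mt-Atp6, mt-Co3 and mt-Nd4l occurs elsewhere in the genome, and 99.0% of those of mt-Nd3, against 0% of mt-Nd1, mt-Nd6 and mt-Cytb. The share was 8.29% for mt-Nd2 and 7.61% for mt-Nd5. It was 62.2% for mt-Nd4 and 51.1% for mt-Co1, although their SDs over the 51 cells were only 0.76 and 0.70. How reads that fit several places were counted is not given in the sources used here, and the part of this in the spread of mt-Co2, mt-Atp6 and mt-Co3 was not tested.

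**Figure D2:**
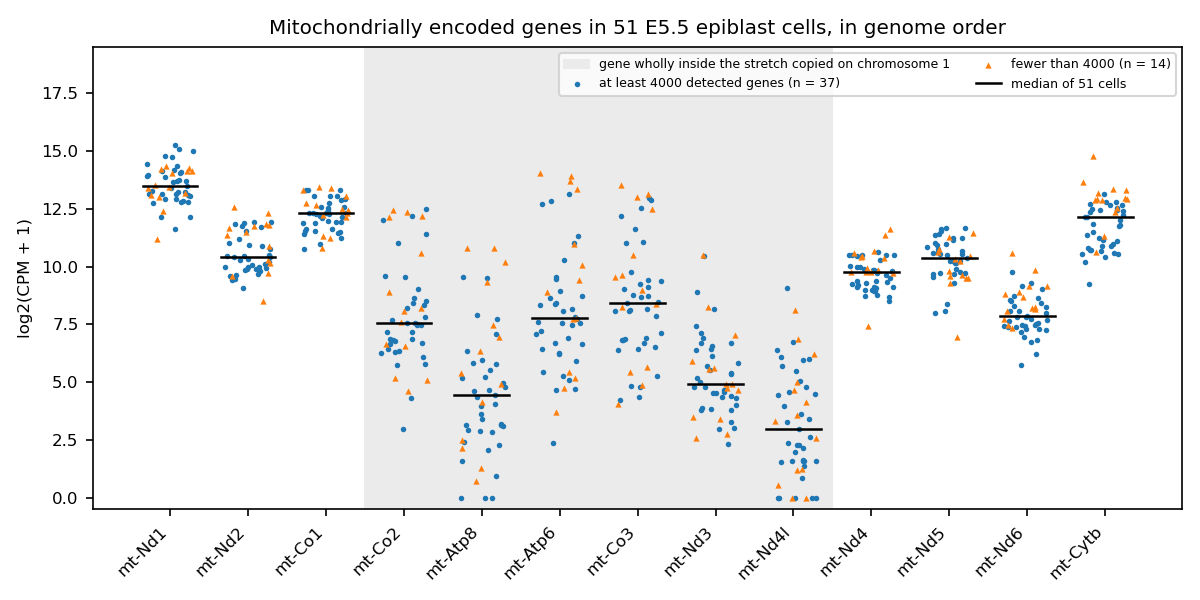
Level of the 13 mitochondrially encoded genes, as log2(CPM + 1), in each of the 51 cells, in the order of the mitochondrial genome, with the median as a bar and the 14 cells with fewer than 4000 detected genes as triangles. The 6 genes wholly inside the copied stretch (shaded) spread widely, mt-Co3 with an SD of 2.61. mt-Co1 and mt-Nd4, which lie partly inside it, had SDs of 0.70 and 0.76.

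The same pattern stood in the other embryos of the series, whose cells the calls did not use. In the 5 embryos at E4.5 and the 2 at E6.5, with 8 to 47 kept cells each, rho between pairs of mt-Co2, mt-Atp6 and mt-Co3 was 0.843 to 1.0, and the SD of mt-Co3 was 1.71 to 3.28 on the log2 scale. The spread of these 3 genes was thus not particular to the E5.5 epiblast. The SD of mt-Nd1 was 0.34 to 0.79 in the E4.5 embryos, 0.84 in the 51 cells, and 1.17 and 1.47 in the E6.5 embryos, whose cells include several lineages.

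Apart from the mitochondrial genome, the variable genes of highest ratio fell into a few roles. Cytoskeletal genes were Actb (ratio 7.65, with 528, 5534 and 11456 CPM as lowest, median and highest), the tubulin Tubb4b (4.91) and Tuba1a (3.03). Actb was read in every cell and kept its ratio in the 37 cells (7.68). Protein turnover and folding were represented by the proteasome subunits Psma5 (7.37) and Psmb3 (5.03), the ubiquitin-conjugating enzyme Ube2d3 (4.77, from 7.0 through 923 to 4227 CPM) and the prefoldin subunit Vbp1 (4.22, from 0 through 559.8 to 4708 CPM). Ube2d3 and Vbp1 kept ratios of 5.37 and 4.23 in the 37 cells.

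Psma5, Psmb3, Tubb4b, Tuba1a and Pebp1 did not. Their ratios in the 37 cells were 0.68, 1.16, 1.31, 1.15 and 0.91, and their high ratios in the 51 cells came from a few of the 14 cells with few detected genes. Psma5, for example, was at 563 CPM or more in each of the 37 cells but at 5 CPM or less in 2 of the 51, and Pebp1 was at 142 CPM or more in the 37 and at 5 CPM or less in 4 of the 51.

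Metabolic genes formed the next set. Ferritin light chain Ftl1 (5.93) ran from 1565 through 6387 to 20299 CPM and kept a ratio of 6.47 in the 37 cells. The mitochondrial carriers Slc25a5 (4.65, ADP and ATP) and Slc25a3 (4.18, phosphate), the glycolytic enzymes Eno1 (3.38) and Ldha (3.34), and Phgdh (3.19), the first enzyme of serine synthesis, were also called. Slc25a3 fell to 2.45 with 1 cell left out and was not called in the 37 cells (1.62). Ldha was at 1129, 4989 and 10905 CPM and was called in both sets of cells, although not with the narrower window. Phgdh had no read in 4 of the 51 cells but was at 128 CPM or more in all of the 37, where its ratio was 2.10 and it was not called.

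Pim2, a serine/threonine kinase tied to cell survival and raised in the primed epiblast, was the most variable of the 14 tested formative and primed epiblast genes (ratio 6.66, and 3.30 in the 37 cells). It was at 0 CPM in 1 cell, at a median of 1132 and at 3854 CPM in the highest, and in the 37 cells it was at 90.6 CPM or more. The other genes among the 25 highest were Tceal8 (3.83), the calmodulin Calm2 (3.63), the spliceosomal protein Snrpe (3.53), Apoe (3.18), the RNA helicase Ddx3x (3.17), the ribosomal stalk protein Rplp1 (3.17) and Tex30 (3.10). Calm2 and Snrpe were read in every cell, from 552 to 12369 CPM and from 272 to 7718 CPM. Apoe had no read in 3 cells, and in the 37 cells 1 cell without a read decided its call, since its ratio of 4.17 fell to 1.25 with that cell left out.

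Restricting the cells to the 37 added to the called genes. Called there and not in the 51 cells were, among others, 2 epiblast genes that belong to the markers and gene lists. Tdgf1 had a ratio of 3.27 in the 37 cells and 1.62 in the 51, with levels of 19, 670.0 and 1421 CPM in the 37. Dnmt3b, the main de novo methyltransferase of the epiblast, had 2.50 and 2.01, with levels of 724, 1973 and 4355 CPM in the 37. The ratio of Tdgf1 fell to 2.13 and that of Dnmt3b to 2.27 at the lowest with 1 cell left out. Dnmt3b was not called with the narrower window (lowest ratio 1.66), and Tdgf1 was (2.72). Of the 50-base stretches of Tdgf1 27.35% occur elsewhere in the genome, against 8.05% of those of Dnmt3b, so the values of Tdgf1 are less certain.

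Others were chosen after their values were seen. Isyna1, which makes inositol phosphate (ratio 4.37), Id3, an inhibitor of DNA binding (4.41), the claudin Cldn6 (3.18), the cationic amino acid transporter Slc7a3 (2.81), asparagine synthetase Asns (2.56) and the mitotic kinesin Kif20b (2.56) were called in the 37 cells, of which only Id3 was also called in the 51. Isyna1 ran from 0 through 342 to 1322 CPM in these 37 cells and was at 5 CPM or less in 4 of them.

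Sequence shared with other loci was common among the variable genes. In 26 of the 44 genes (59.1%) at least 20% of the 50-base stretches of the transcripts occur elsewhere in the genome, as in processed pseudogenes and gene families, against 11.2% of all 6812 tested genes with a locus. In the 37 cells it was 24 of 55 (43.6%) against 11.3%. Abundant genes have more such copies: at a mean of 8 or more on the log2 scale the share was 75% of 32 variable genes and 39.1% of 466 others, and below that level 16.7% of 12 variable genes and 8.79% of 6302 others. Values of genes such as Ftl1 (74.9% of its stretches elsewhere), Eno1 (72.2%), Phgdh (73.7%), Psmb3 (63.5%), Rplp1 (62%) and Slc25a5 (61.3%) are therefore uncertain where reads could be split or dropped between copies. The called genes under this 20% limit were 18, with mt-Nd1, Actb (15.4%), mt-Cytb, Vbp1 (2.52%), Slc25a3 (3.90%), Tceal8 (1.52%), Apoe, Ddx3x (14.1%) and Tex30 the highest by ratio. When the trend was refitted without the genes over the limit, 15 genes were called.

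Variable genes that moved together were grouped by the Spearman correlation of their values with detected genes regressed out, using average linkage. Clusters were joined while the mean correlation between their members was at least 0.4, and groups of 5 or more genes were kept. In the 51 cells 19 of the 44 variable genes fell into 3 groups. In these 51 cells no group was found without the genes with at least 20% of their 50-base stretches elsewhere. When joining asked for at least 0.5, no group was found either. Since groups were chosen for their correlation, the correlations within them are a description. The mean over all pairs of the 44 genes was 0.110, with values from -0.645 to 0.957.

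The first group held Tuba1a, Eno1, Actb, Phgdh, Idh3g, Cdc20 and Apoo, with a mean correlation of 0.477. It joins cytoskeleton and metabolism with Cdc20, the activator of the anaphase-promoting complex. Its score, the mean standardized level of its members, had a rho of -0.321 with detected genes and of 0.319 with reads. Of its 7 genes only Actb and Eno1 were called in the 37 cells, and the group was not found there. The second held mt-Nd1, mt-Cytb, mt-Nd2 and mt-Co1 with Ube2d3 and Vbp1, with a mean correlation of 0.539. Its score had a rho of 0.784 with the mitochondrial share of reads, of which it holds 4 genes, and of 0.467 with the number of reads. The third held Tceal8, Gtf2a2 (a subunit of TFIIA), Snrpe, Slc25a5, Tex30 and the chromatin remodeller Atrx, with a mean correlation of 0.487. The score of the second group had a rho of 0.510 with that of the third and of 0.114 with that of the first, and the scores of the first and the third had one of 0.503.

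In the 37 cells 2 groups were found. The larger held 13 genes with a mean correlation of 0.530: mt-Cytb, mt-Nd1, mt-Nd2, Polr2k, Ube2d3, Sub1, Calm2, Cacybp, Snrpe, Slc25a5, Vbp1, Mat2b and Tdgf1. Its rho was 0.754 with the mitochondrial share and 0.480 with reads. The smaller held 6 genes of translation, the ribosomal proteins Rpsa, Rplp1, Rps12 and Rps4x and the elongation factors Eef1b2 and Eef2, with a mean correlation of 0.704 and a rho of -0.381 with reads. Cells high for one group tended to be low for the other, with exceptions in both directions and a rho of -0.632 between the scores. Between single members of the 2 groups, Rplp1 had a rho of -0.468 with mt-Nd1. Within the larger group, Tdgf1 had a rho of 0.447 with mt-Nd1 over the 37 cells. These genes are members of the groups, so their values are part of the same description. The number of reads moved with both groups. CPM are also shares of a cell's total, so a larger share of some genes lowers that of others. The part of either in the opposition of the groups was not tested.

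**Figure D3:**
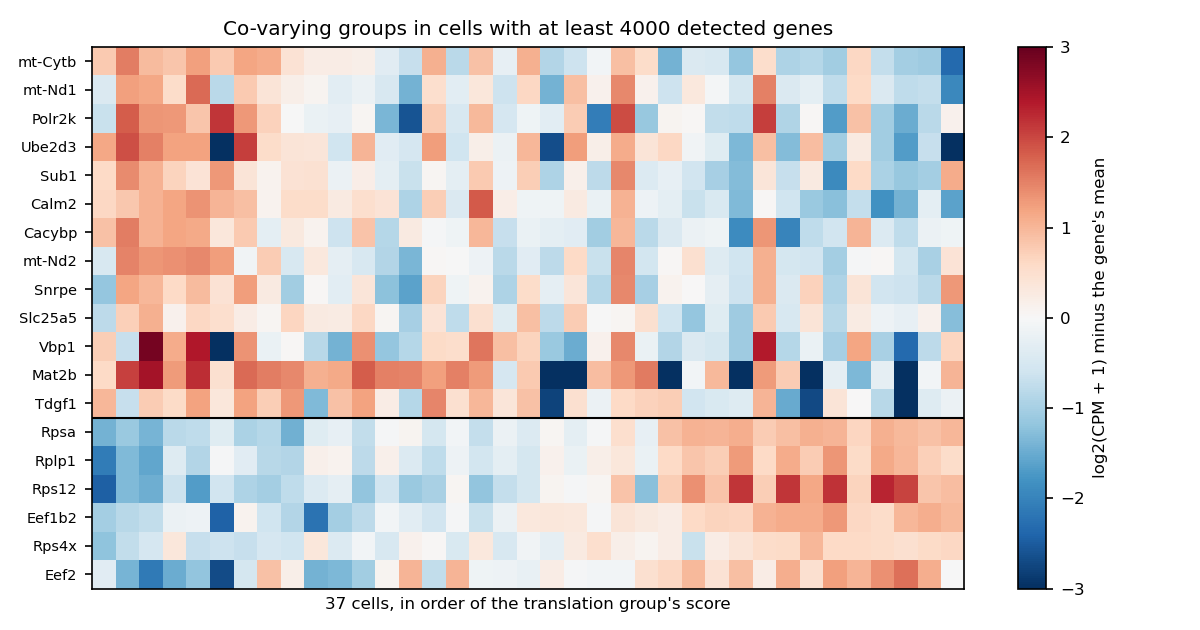
Level of the 13 and 6 genes of the 2 co-varying groups, as log2(CPM + 1) minus the mean of the gene (colour), in the 37 cells with at least 4000 detected genes, ordered by the score of the translation group. Cells on the right, high for Rpsa to Eef2, were mostly low for mt-Cytb to Tdgf1, and the scores had a rho of -0.632.

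The rule set for comparing the groups with epiblast cells at E6.5, which asked for at most 1 of Amn, Apoa1, Cubn and Dab2 at 10 CPM, left 0 and 2 cells in the 2 embryos, because 36 of 36 and 45 of 47 kept cells held at least 2 of these 4 genes. A wider rule chosen after this was seen, Pou5f1 at 10 CPM or more with T and Mesp1 below it, left 33 and 22 cells, which may include other lineages. In these cells the mean correlations of the 3 groups were 0.210 and 0.451, 0.304 and 0.460, and 0.101 and 0.409. For the 2 groups of the 37 cells they were 0.163 and 0.291, and 0.373 and 0.312. In each of the 5 groups the mean was lower in both E6.5 embryos than in the cells that chose the group.

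Fixed gene lists were then compared by the median correlation over their pairs, beside the median over all pairs of tested genes, which was 0.00995 in the 51 cells and 0.00569 in the 37. Of 23 lists, 19 had at least 1 pair. Ribosomal protein genes were the most coherent (median 0.379 over 3081 pairs, and 0.485 in the 37 cells), followed by the mitochondrially encoded genes (0.313 and 0.261). Ribosomal protein genes together took 5.78% to 21.9% of a cell's reads, with a median of 12.8%. This share had a rho of -0.456 with the mitochondrial share and -0.481 with the number of reads. Both shares are parts of the same total, and the part of this in their relation was not tested. The list holds the genes named Rpl or Rps with a number, and so leaves out Rplp0, Rplp1 and Rpsa, which were called in the 51 cells (ratios 2.52, 3.17 and 3.05), the last pair also in the 37. Of the 79 tested genes on the list 0 were called in the 51 cells, and Rps2, Rpl39, Rps4x and Rps12 were called in the 37 (ratios 2.80, 2.68, 2.55 and 2.96). Rpl10 had a ratio of 4.49 in the 51 cells through 1 cell without a read and 1.0 in the 37.

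**Figure D4:**
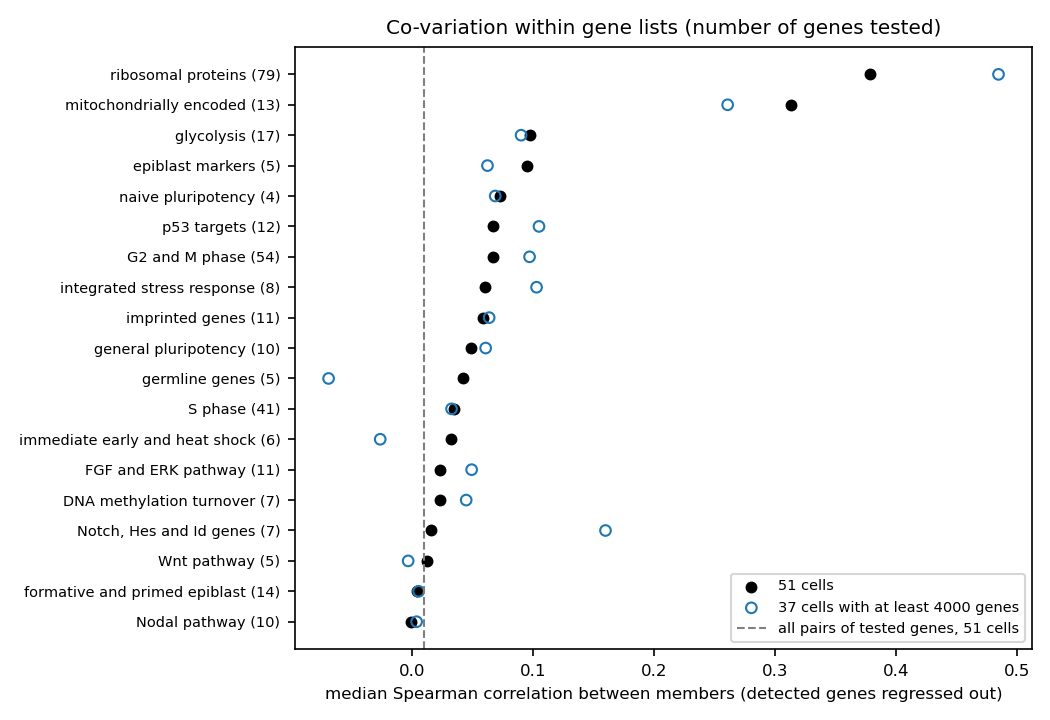
Median Spearman correlation between the members of each gene list, with detected genes regressed out, in the 51 cells (filled) and in the 37 (open), with the number of genes tested in the 51 cells in brackets and the median over all pairs of tested genes, 0.00995, as a dashed line. Ribosomal protein genes (0.379 and 0.485) and mitochondrially encoded genes (0.313 and 0.261) lie apart from the other 17 lists, and the Notch, Hes and Id genes move to 0.16 in the 37 cells.

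Glycolysis genes had a median correlation of 0.0973 with 2 of 17 tested genes called, Eno1 and Ldha. Pkm had a higher ratio (4.67) but was not called, and its ratio was 1.78 in the 37 cells. Genes of the cell cycle had low median correlations across these cells. The median was 0.0666 for 54 genes of G2 and mitosis and 0.0348 for 41 genes of S phase. Tubb4b and Cdc20 were called among the genes of G2 and mitosis, where Ccnb1 (cyclin B1) had a ratio of 2.08. No S phase gene was called, the highest being the histone mRNA-binding protein Slbp (2.18), Rpa2 (1.68) and Mcm2 (1.49). In the 37 cells Kif20b was the 1 gene of these 2 lists that was called. Ratios of uncalled genes there reached 3.74 (Top2a), 2.49 (Ccnb1) and 2.46 (Ube2c), and in S phase 2.72 (Slbp) and 2.62 (Gins2).

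Pluripotency genes showed little common variation. The 5 epiblast markers had a median correlation of 0.0948 over 10 pairs, and of 0.0624 in the 37 cells. Over the 10 tested genes of general pluripotency the median correlation was 0.0489 with 0 called (Sall4 1.30 and Pou5f1 1.23 after Tdgf1 1.62), and Sox2 had a ratio of 0.96. Of the 13 naive genes only 4 passed the filter on level, so no count over that list describes the list itself. The median correlation of these 4 was 0.0729, and -0.12 when detected genes were not regressed out. Dppa5a was at 1030.2, 2493 and 11482 CPM with a ratio of 1.48, Dppa3 (Stella) had 1.37 and Zfp42 (Rex1), with no read in 28 of 51 cells, 1.26. The 14 tested formative and primed genes had a median correlation of 0.00443, and beside Pim2 and Dnmt3b their ratios did not exceed 1.2. Otx2, Fgf5 and Pou3f1 had ratios of 1.01, 0.95 and 0.83, so their spread over the cells was near that of other genes of the same level.

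Signalling lists were near the median of all genes. In the Nodal pathway Tdgf1, Gdf3 (1.33) and Smad4 (1.32) had the highest ratios and the median correlation was -0.000905 over 10 genes (0.00379 in the 37 cells). In the FGF and ERK pathway Ier3 (1.09), Dusp6 (1.08) and Dusp4 (1.07) led 11 tested genes (median correlation 0.0232), and in the Wnt pathway Lef1 (1.0), Sfrp1 (0.98) and Ctnnb1 (0.98) led 5 (0.0124, and -0.0032 in the 37 cells). None was called in the 51 cells, though genes such as Ier3, at a median of 0 CPM, are at levels where calls were rare. The list of Notch, Hes and Id genes was the exception, with Id3 (2.50) called and Id1 (1.86) and Hes6 (1.72) next, although its median correlation was 0.0159 over 7 genes. In the 37 cells it was 0.16 over 5 genes.

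DNA methylation genes, which the study centres on, had ratios between 0.65 and 2.01. Dnmt3b was highest (lowest 1.56 with 1 cell left out) with levels of 194, 1826 and 4355 CPM over the 51 cells. Dnmt3l, the cofactor without catalytic activity, had 1.19, Uhrf1, which brings Dnmt1 to newly copied DNA, 1.10, and the dioxygenase Tet1 1.02. The maintenance enzyme Dnmt1 had 0.91, the glycosylase Tdg 0.83 and Dnmt3a 0.65. Dnmt3a was read in every cell, from 77.1 through 556 to 1945 CPM, whereas Tet1 had no read in 6 cells around a median of 81.8 CPM and Dnmt1 none in 13. Of 9 listed genes 7 were tested, 0 were called in the 51 cells and 1, Dnmt3b, in the 37, where Uhrf1 reached 1.88 and Dnmt3a 1.57. The median correlation over 21 pairs was 0.0229, and 0.0448 in the 37 cells.

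Stress and imprinting lists were described the same way. In the list of the integrated stress response Phgdh was called, followed by Asns (1.79) and Cars (1.34). Cdkn1a (1.77), Trp53inp1 (1.56) and Pmaip1 (1.41) led 12 tested p53 targets, Hsp90aa1 (1.94), Ier2 (1.38) and Dnajb1 (1.30) led 6 immediate early and heat shock genes, Peg3 (1.53), Cdkn1c (1.23) and Ndn (1.15) led 11 imprinted genes, and Hormad1 (1.61), Tuba3a (1.48) and Dazl (1.38) led 5 germline genes, with 0 called in each of these 4 lists. Their median correlations were 0.0607 for the integrated stress response, 0.0673 for p53 targets, 0.032 for immediate early and heat shock, 0.0583 for imprinted and 0.0422 for germline genes. The value in the 37 cells was -0.0263 for immediate early and heat shock genes and -0.069 for germline genes, so neither kept its sign. The lists of visceral endoderm, extraembryonic ectoderm and streak markers each had 1 tested gene, Apoe in the first and Eomes (1.19) in both others, and so no pair. None of the 14 measured genes of the 2-cell-like list passed the filter on level.

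Bimodal genes were defined as those at 50 CPM or more in at least 20% of cells, at 5 CPM or less in at least 20%, and between the 2 levels in at most 10%. In the 51 cells 205 of the 6818 tested genes (3.01%) met this, and in the 37 cells 59 of 6508 (0.907%). They shared 38 genes, 18.5% of the first and 64.4% of the second. In 195 of the 205 genes (95.1%) the high cells had more detected genes at the median than the low cells, as in 89.6% of 6296 genes with both high and low cells. In the 37 cells it was 44 of 59 (74.6%), against 72.2%. More detected genes in the high cells was thus a feature of most genes in these cells, bimodal or not. The median level in the high cells lay between 67.4 and 390.0 CPM over these 205 genes, with a median of 126 CPM.

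Among the most even splits, Atp6ap2, an accessory subunit of the proton pump, was high in 24 cells, low in 24 and between in 3. Its high cells had a median of 158 CPM and 5860 detected genes, and its low cells 3806 detected genes. Rabepk was high in 24 and low in 25, with nearly equal detected genes in both, 5568 and 5599. Rpp40 (RNase P) was high in 24 and low in 23, Zfyve21 in 26 and 23, Ipo4 (an importin) in 24 and 22, with 6320 and 3638 detected genes, and Ftsj1 (a tRNA methyltransferase) in 22 and 24. Dok2, Sh3glb2, Glmp, Timm21, Tmem33, Yars2, Acad9, Cers5 and Hagh complete the 15 most even splits, each high in 22 or 24 cells. Of these 15, Atp6ap2, Rabepk, Rpp40 and Zfyve21 were also bimodal in the 37 cells.

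Id3 was the 1 gene called both variable and bimodal in the 51 cells, and it had the highest level in its high cells. Id genes code for inhibitors of helix-loop-helix factors and are known targets of BMP signals, which reach the epiblast from the extraembryonic ectoderm. Id3 had no read in 12 of the 51 cells, a median of 139 CPM and 1502 CPM in the highest cell. It was high in 32 cells, with a median of 390.0 CPM, low in 14 and between in 5. The high cells had a median of 5634 detected genes and the low cells 3806. In the 37 cells it was high in 26, low in 6 and between in 5, so the split was less even there and did not meet the definition, while its ratio was 4.41.

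Id1 was high in fewer cells, 12 of 51, with a median of 237 CPM in these, low in 36 and between in 3. Its high cells did not have more detected genes (5379 against 5568 in the low cells), and it stayed bimodal in the 37 cells with 8 high and 26 low. The 2 genes showed little relation to each other, with a rho of 0.13 over the 51 cells and 0.146 over the 37, and Id2 had a rho of 0.0605 with Id3.

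Further bimodal genes with high levels in their high cells, chosen after their values were seen, were the zinc finger gene Zfp934 (331 CPM, high in 13 cells and low in 33, with 5428 and 5505 detected genes), Kif20b (229.6 CPM, 30 and 16) and Gapdh (204 CPM, 28 and 18). Kif20b was the 1 gene called both variable and bimodal in the 37 cells, with 26 high and 8 low. Of the cell cycle lists, Cdca3, Aurka and Cdca2 were also bimodal in the 51 cells, as was Prim1 of DNA replication. Gapdh, an abundant glycolytic enzyme, had a median of only 84.9 CPM, its high cells had 6034 and its low cells 3509.5 detected genes, and 85.6% of its 50-base stretches occur elsewhere in the genome.

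**Figure D5:**
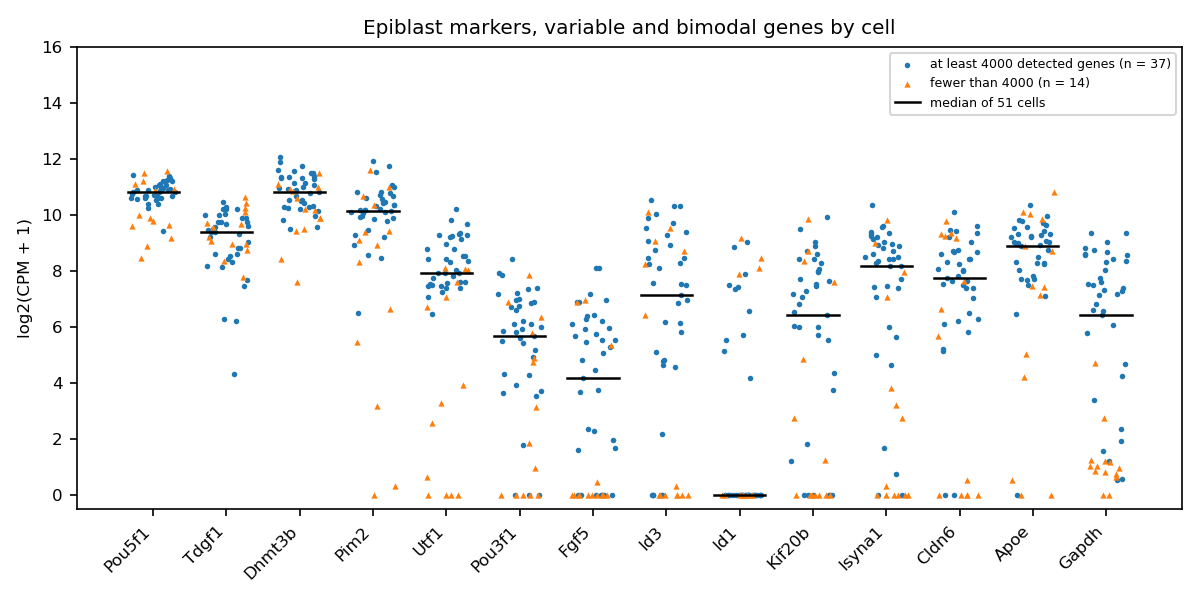
Level of the 5 epiblast markers and of 9 variable or bimodal genes, as log2(CPM + 1), in each of the 51 cells, with the median as a bar and the 14 cells with fewer than 4000 detected genes as triangles. Pou5f1 (356 to 3076 CPM) and Dnmt3b (194 to 4355 CPM) were read in every cell, while Id3 was low in 14 cells, Id1 in 36 and Gapdh in 18, among them most triangles for Gapdh.

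The cell number in the labels was compared with the same measures. Over the 51 cells its rho was -0.0428 with reads, 0.12 with detected genes, -0.172 with the mitochondrial share, and 0.181, -0.211 and -0.0196 with the scores of the 3 groups. The remainder of the cell number after division by 12 had a rho of 0.34 with reads and of 0.34, 0.20 and 0.362 with the 3 scores, so the group scores and the depth both moved with it. Among blocks of 12 consecutive cell numbers, that of cells 49 to 57 (7 cells) had the highest median mt-Nd1, 28312 CPM. Its median mitochondrial share, 5.19%, was the highest too. Medians of mt-Nd1 in the other blocks were 8006 to 17276 CPM. The part of the cell number in the groups and in mt-Nd1 was not tested.

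Of the variable genes 8 lie on the X chromosome: Pim2, Slc25a5, Vbp1, Tceal8, Ddx3x, Apoo, Atrx and Idh3g. They were 3.23% of the 248 tested X-linked genes, against 0.443% of 6550 autosomal genes, and in the 37 cells 6 of 232 (2.59%) against 41 of 6257 (0.655%). The median ratio was 1.14 for X-linked and 1.01 for autosomal genes in the 51 cells. Of these 8, Pim2, Slc25a5 and Apoo have at least 20% of their 50-base stretches elsewhere. The 6 called in the 37 cells were largely other genes. Pim2, Slc25a5 and Vbp1 were called in both sets of cells, while Tceal8, Ddx3x, Apoo, Atrx and Idh3g were not called in the 37. Slc7a3, Rps4x and Rpl39 were called in the 37 cells only. Of these 6, Pim2, Slc25a5, Rps4x and Rpl39 have at least 20% of their 50-base stretches elsewhere.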

How the data were processed

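RNA of single cells of mouse embryos was sequenced with Smart-seq2 as one arm of scM&T-seq. The authors deposited counts, the number of reads on each of 22084 genes per cell, without normalization. The submitters' processing notes list, with no role given, Trim Galore (0.4.2 and 0.4.5), cutadapt 1.8.1, HISAT2 2.1.0, featureCounts, Bismark 0.19.0, R 3.4.3 and the build GRCm38. The annotation and the treatment of reads that fit several places are not given in the sources used here. Symbols were matched to 21907 of 22084 Ensembl identifiers through GENCODE. The members, the gene lists and the measures were chosen with earlier results of these data known.

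CPM were computed from all reads counted in a cell. Genes with at least 10 CPM in at least 10 cells were tested. Detected genes were regressed out of log2(CPM + 1), and variance was divided by a lowess trend (fraction 0.3, and 0.05 as an alternative chosen after seeing the data). Named genes are the markers, the DNA methylation genes, the 25 highest variance ratios, the 15 most even bimodal splits, up to 6 genes per group and the 3 highest ratios per list. Predicted genes were counted and not described (1 variable and 1 bimodal in the 51 cells). Others are named as chosen after their values were seen. Shared 50-base stretches were found by exact match to GRCm38 on both strands, and the nuclear copy of mitochondrial sequence with BLAST 2.17.0. The procedure was tested on simulated data. Python 3.11.15, numpy 2.4.6, pandas 2.3.3, scipy 1.17.1, statsmodels 0.14.6, numba 0.67.0, R 4.3.3 and scran 1.30.0 were used. Doublets were not called. The bisulfite data were not used here. Columns of counts that match no sample numbered 0. One bimodal gene is not reported here.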

Additional observations from a re-analysis of the deposited data

How the results depend on the processing

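No paired analysis was possible because all cells come from 1 embryo and no groups were compared. The number of variable genes, 44, was 34 to 60 under 11 of 15 alternatives, among them the filter of 4000 detected genes, no regression, thinning to 50000 reads, scran size factors, other pseudocounts and the narrower trend. It was 15 without genes with shared stretches, 105 with scran modelGeneVar, 114 at a ratio of at least 2 with all cells only and 163 at a ratio of at least 1.5. A similar number did not always mean the same genes. Of the 44, 21 were called under the filter of 4000 detected genes and 23 with the squared coefficient of variation. It was 31 when genes with a read in at least 2 cells were tested, against 42 with no regression and 43 with scran size factors. Actb, Id3, Vbp1 and mt-Cytb were called in all 15 alternatives, and mt-Nd1 in 14, the exception being scran modelGeneVar. Of the 15, the filter of 200000 reads removed no cell and so could change nothing. The rule with all cells only and the ratio of at least 1.5 are looser than the main rule and so could not drop a called gene. Bimodal genes, 205, were 59 in cells with at least 4000 detected genes, 115 with scran size factors, 544 after thinning to 50000 reads, 16 with at most 5% of cells between and 4748 with a mixture of 2 components. Genes in co-varying groups, 19, were 11 after thinning, 12 with the narrower trend and 0 without genes with shared stretches. They were 32 when joining asked for a mean correlation of at least 0.3, and 0 at 0.5. Lists whose median correlation exceeded that of all pairs by at least 0.1, 2 here, were 6 with no regression. The causes were not tested. The narrower trend, the removal of genes with shared stretches and the wider rule for E6.5 were chosen after seeing the data. Genes at 10 CPM or more in fewer than 10 cells were not tested, 14 cells have fewer than 4000 detected genes, and a gene without a read in a cell cannot be told apart from one that is not expressed.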

Other observations

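Streak markers appeared in few genes per cell. Of the 51 cells 26 had none of the 12 markers of the primitive streak and mesoderm at 10 CPM or more, 19 had 1, 4 had 2 and 2 had 3. The median number of detected genes was 4828 in the cells with 0 markers, 5630.0 in those with 1, 6320.0 in those with 2 and 5320.5 in those with 3. The highest levels were 349.5 CPM for Lefty2, 169 CPM for Eomes, 143 CPM for Fgf8 and 119 CPM for Snai1.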
